A study of Rattus norvegicus with 23 samples.

Results

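The genes described here are 35 genes that mark T lymphocytes and natural killer (NK) cells, followed in the lungs of elderly rats that had inhaled a titanium dioxide (TiO2) nano-aerosol. They were taken by gene symbol from the annotation of the array, which named 25597 genes. Of the 35 genes, 34 had a probe above background on enough arrays to be tested, among 23029 genes tested in all. The one left out was Ctla4, an inhibitory receptor of activated T cells, whose only probe was well above background on 0 of the 23 arrays.

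The study exposed male F344 rats, 19 months of age when the inhalation began, nose-only to filtered air or to TiO2 for 6 hours a day on 5 days of each of 4 weeks. The TiO2 aerosol was at 10 mg/m3. Lungs were taken either at the end of the exposure (D0) or 28 days later (D28), and the RNA came from the accessory lobe, 1 rat per single-colour Agilent array. The control group held 6 rats on D0 and 6 on D28, all in filtered air, and the exposed group held 5 rats on D0 and 6 on D28. All rats were of the same inbred strain. The source label of the exposed D28 arrays gives another day than their titles and descriptions, and the titles and descriptions were followed.

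T cells recognise antigen through a receptor whose signal is carried into the cell by the CD3 and zeta chains, aided by the coreceptor CD4 or CD8. The kinase Lck starts this signal, and Zap70 and the adaptor Lat pass it on. Cytotoxic T cells and NK cells kill target cells by releasing granules that hold the pore-forming protein perforin and the granzymes, serine proteases that trigger cell death. NK cells lack the antigen receptor and read their targets through receptors such as NKp46, CD94 and NKG2D. The lung holds resident cells of these types and others that pass through its blood vessels. In RNA from a whole lobe, fewer cells of a type and less RNA per cell cannot be told apart.

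Promoters are shown for 5 genes of the cytotoxic granule, since their signals varied together from rat to rat as described further on. These are Prf1, Gzma, Gzmb, Gzmk and Nkg7. Each sequence covers 250 bases before and 50 bases after the annotated start in RefSeq (build GRCr8), written 5′ to 3′ on the strand of the gene. Capitals mark matches to the core motifs of the T-box (TCACACC), RUNX (TGTGGTT) and ETS (AGGAAGT) factors, searched on both strands. The TCF/LEF motif (CTTTGAT) was searched too and has no match in these 5 windows.
Prf1 (chr20:29788790-29789089, plus strand): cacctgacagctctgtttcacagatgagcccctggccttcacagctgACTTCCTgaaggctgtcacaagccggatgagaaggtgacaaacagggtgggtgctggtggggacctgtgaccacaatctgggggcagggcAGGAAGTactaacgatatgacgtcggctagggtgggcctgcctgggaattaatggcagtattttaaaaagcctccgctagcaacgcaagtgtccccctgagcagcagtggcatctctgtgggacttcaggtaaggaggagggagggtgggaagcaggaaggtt
Gzma (chr2:46485647-46485946, minus strand): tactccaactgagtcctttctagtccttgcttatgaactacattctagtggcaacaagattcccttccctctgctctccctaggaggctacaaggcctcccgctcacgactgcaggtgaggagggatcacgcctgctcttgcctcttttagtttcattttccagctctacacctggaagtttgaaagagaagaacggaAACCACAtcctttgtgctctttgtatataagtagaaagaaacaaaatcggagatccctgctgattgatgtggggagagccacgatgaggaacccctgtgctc
Gzmb (chr15:34462420-34462719, minus strand): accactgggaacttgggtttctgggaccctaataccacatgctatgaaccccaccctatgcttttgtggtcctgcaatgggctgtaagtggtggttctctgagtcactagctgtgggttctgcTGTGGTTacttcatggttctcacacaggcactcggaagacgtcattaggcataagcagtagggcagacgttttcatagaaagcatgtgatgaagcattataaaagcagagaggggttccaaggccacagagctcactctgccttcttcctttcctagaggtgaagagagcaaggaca
Gzmk (chr2:46581966-46582265, minus strand): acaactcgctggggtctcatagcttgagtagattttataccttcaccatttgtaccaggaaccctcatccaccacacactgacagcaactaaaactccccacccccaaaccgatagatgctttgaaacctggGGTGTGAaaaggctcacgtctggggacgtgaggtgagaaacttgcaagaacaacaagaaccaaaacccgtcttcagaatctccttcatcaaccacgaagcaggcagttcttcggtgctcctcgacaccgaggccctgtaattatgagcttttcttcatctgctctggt
Nkg7 (chr1:102981247-102981546, plus strand): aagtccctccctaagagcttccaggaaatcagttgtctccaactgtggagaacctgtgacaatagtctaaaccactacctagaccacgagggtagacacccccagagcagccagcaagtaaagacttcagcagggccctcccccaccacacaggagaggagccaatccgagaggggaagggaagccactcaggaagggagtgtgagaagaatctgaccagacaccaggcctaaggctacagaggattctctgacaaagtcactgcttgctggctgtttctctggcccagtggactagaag
The ETS motif occurred in the promoter of Prf1 and the RUNX motif in those of Gzma and Gzmb. The T-box motif occurred in that of Gzmk, and no match was found in that of Nkg7. Promoters were listed for 28 of the 35 genes. Of these 28, the ETS motif was in 7, against 8.41% of all 33469 rat promoters of the same length. The RUNX motif was in 6 of 28 against 5.57%, the TCF/LEF motif in 4 of 28 against 3.63%, and the T-box motif in 2 of 28 against 3.83%. No motif was thus shared by the 5 promoters, and these matches are a description of letters, not of binding.

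For Icos, the gene of the list with the lowest p for the mean effect of both days, the first 30 bases of its 3 array probes are shown. The probes are 60 bases long. The first was designed on a predicted transcript and the other two on the RefSeq transcript, and the array annotation gave no position in the rn4 genome for any of them.
Icos predicted-transcript probe: ttgttttcatctcttgactaagctcctgtc
Icos first RefSeq probe: acagaagctcttatgtttctgagatgttga
Icos second RefSeq probe: gaactcaatgacttggccaatcacaggatg
The first probe gave the brightest signal and the last was dim, being well above background on only 8 of the 23 arrays.

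Values are log2 fluorescence signals after quantile normalisation, so a difference of 1 is a 2-fold change, and levels are compared for the same gene only. The upper quartile of the processed signal lay between 1383 and 3470 on the 23 arrays, and the share of spots well above background lay between 69.5% and 77.9%. All 8 genes of a lung epithelium list were above background on every array. The markers Cd3e, Cd8a and Gzmb were above background on every array as well. The arrays lay on 5 slides, and arrays of the same slide deviated together somewhat more than those of different slides, with a median correlation of 0.18 against -0.05. Control D0 replicate 1, exposed D0 replicate 4, control D28 replicate 4 and exposed D28 replicate 2 stood above their groups for many of the cytotoxic genes, and the differences of those genes are given with and without them. Control D28 replicate 4 was the only array on slide 5, with the highest upper quartile and share of spots above background. For this array, rat and slide cannot be told apart. Each array is 1 rat, so the spread given is between animals, and the number of arrays limits the precision.

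No T or NK cell gene passed the threshold of the study, an adjusted p under 0.05 and a fold change (FC) of at least 1.5, on either day. On D0, 0 of 34 were over-expressed and 0 of 34 were under-expressed in exposed lungs with limma, against 1.09% and 0.695% of all genes tested. Without adjustment, Icos was higher and Cd7 lower at p under 0.05, 1 of 34 in each direction against 5.61% and 6.34% of all genes. On D28, 0 of 34 genes passed in either direction, against 0.486% and 0.269% of all genes. Icos was higher and Thy1 lower without adjustment, against 4.81% and 6.18%. The median log2 FC of the 34 genes was -0.01 on D0 and -0.02 on D28, beside 0 and -0.01 for all genes. The genes were split evenly, with 17 of 34 higher on D0 (49.9% of all genes) and 16 of 34 on D28 (48.8%). On D28, exposed and control values overlapped for all 34 genes, while 0.682% of all genes were higher and 0.543% lower without overlap.

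For the mean of the effects on D0 and D28, again 0 of 34 genes passed both limits, against 1.19% of all genes higher and 0.677% lower. Icos alone passed the adjusted p (3.05% of all genes did so upwards), with an FC under 1.5. At an unadjusted p under 0.05, Icos and Cd6 were higher and 0 of 34 lower, against 7.55% and 9.69% of all genes, and 14 of 34 had a log2 FC above 0, against 49.5%. The 95% interval of the difference lay within a 1.5-fold change in either direction for 14 of 34 genes on D0, 12 on D28 and 22 over both days, beside 50.4%, 52.6% and 67.3% of all genes. For the other genes the arrays did not limit the difference to that range.

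**Figure D1:**
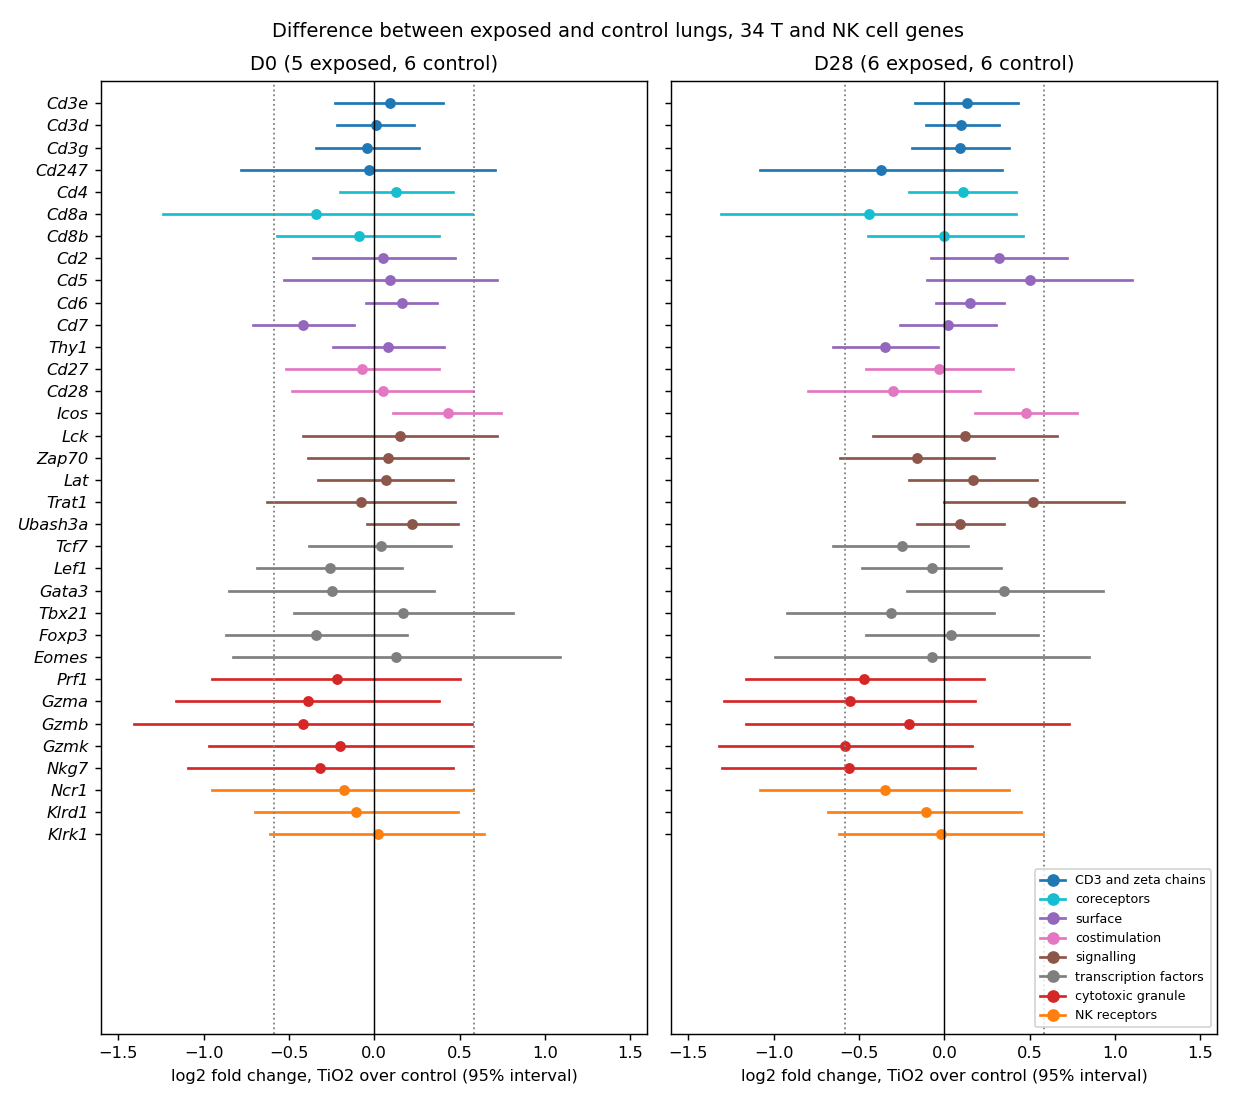
Log2 fold change of exposed over control lungs for the 34 tested genes (points) with the 95% interval from limma (lines), on D0 (left) and D28 (right), coloured by role. Dotted lines mark a fold change of 1.5 in either direction. Icos lies above 0 on both days with intervals that exclude 0, and all 5 cytotoxic granule genes lie below 0 with intervals that include it.

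None of the invariant chains of the T cell receptor differed between exposed and control lungs beyond the spread between rats. Cd3e, the epsilon chain, had a lowest, median and highest log2 signal of 5.81, 6.06 and 6.52 in D0 controls. The exposed D0 rats had 6.23, 6.14, 6.19, 6.54 and 5.81. The ranges nearly coincided, and the log2 FC was 0.09 ± 0.15 (SE, limma, 95% interval -0.23 to 0.40, adjusted p = 0.964). On D28 Cd3e was at 5.70, 6.22 and 6.55 in controls and at 6.07, 6.34 and 6.58 in exposed rats. The groups overlapped again, with a log2 FC of 0.13 ± 0.14 (95% interval -0.17 to 0.43, adjusted p = 0.84). Cd3d and Cd3g, the delta and gamma chains, had log2 FC between -0.04 and 0.10 on the 2 days, with 95% intervals within -0.34 and 0.38. Cd247, the zeta chain that NK cells use as well, varied more. Its signal spanned 9.36 to 10.77 in D0 controls and 8.97 to 10.56 in exposed D0 rats, with a log2 FC of -0.03 on D0 and -0.37 on D28 (adjusted p = 0.996 and 0.79).

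Of the coreceptors, Cd8a differed widely between rats of the same group, while Cd4, found on helper T cells, had a log2 FC of 0.13 on D0 and 0.11 on D28 (adjusted p = 0.918 and 0.889). Cd8a, the alpha chain of CD8, which NK cells of the rat also carry, was at 7.60, 8.31 and 9.81 (lowest, median and highest) in D0 controls. The exposed D0 rats had 7.68, 7.36, 7.36, 9.62 and 8.67. Of these 5 rats 3 were near the bottom of the control range and replicate 4 was near its top. The log2 FC was -0.34 ± 0.44 (95% interval -1.24 to 0.57, adjusted p = 0.927), and it rested on single rats. It was -0.71 without exposed D0 replicate 4, -0.07 without control D0 replicate 1 and -0.44 ± 0.38 without both (adjusted p = 0.934), a pair chosen after the data were seen. On D28 the controls had 7.28, 8.25 and 9.40 and the exposed rats 7.13, 7.83 and 8.77, which overlapped (log2 FC -0.44 ± 0.42, 95% interval -1.31 to 0.42, adjusted p = 0.794). Without control D28 replicate 4 it was -0.22. Cd8b, the beta chain carried by cytotoxic T cells, had a log2 FC of -0.09 on D0 and 0 on D28 (adjusted p = 0.982 and 0.999). The probes of Cd8a and Cd8b lie on rat chromosome 4, at chr4:104593483-104593542 and chr4:104542505-104542564 in rn4, yet their deviations from the group means had an r of only 0.13 over the 23 rats.

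**Figure D2:**
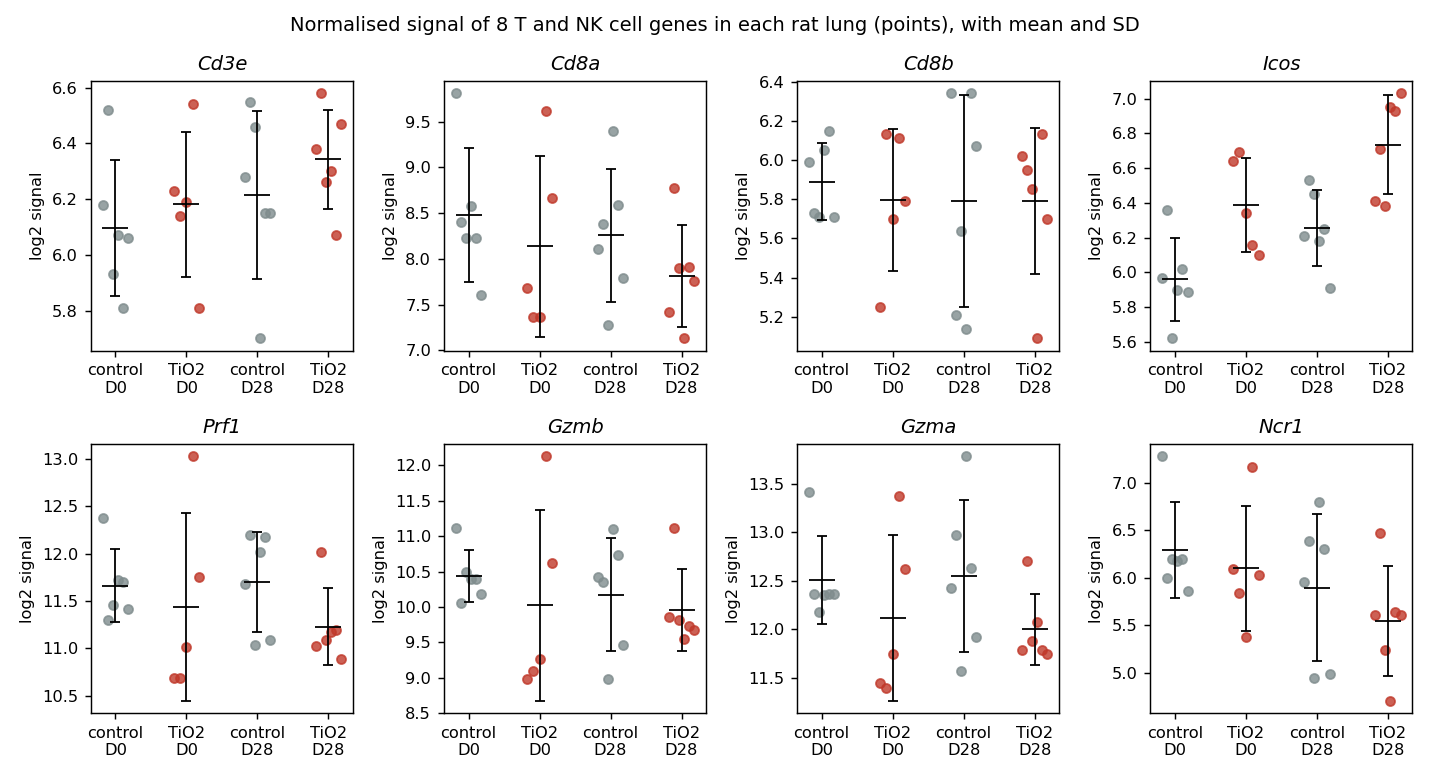
Normalised log2 signal of Cd3e, Cd8a, Cd8b, Icos, Prf1, Gzmb, Gzma and Ncr1 in each rat lung (points), for control (grey) and TiO2 (red) on D0 and D28, with the mean and SD of each group (black). Icos sits higher in exposed than in control lungs on both days with a narrow spread, while Cd8a, Gzmb and Prf1 spread widely within each group.

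Among the surface glycoproteins, Cd7 was lower in exposed lungs on D0 and Thy1 on D28, neither beyond the adjusted threshold. Cd7, a receptor of T and NK cells, was at 8.68, 8.84 and 8.92 (lowest, median and highest) in D0 controls. The exposed D0 rats had 7.65, 8.60, 8.66, 8.66 and 8.43. All 5 were below every control, a separation that 2.37% of all genes showed in this direction on D0 (0 of the 34 genes were higher without overlap, against 1.94%), and replicate 1 was far below the other exposed rats. The log2 FC was -0.42 ± 0.14 (95% interval -0.71 to -0.12, adjusted p = 0.145), and it shrank to -0.23 without replicate 1. On D28 Cd7 was at 8.73, 8.99 and 9.06 in controls and 8.75, 8.90 and 9.21 in exposed rats, with a log2 FC of 0.02 (adjusted p = 0.983). The effects on the 2 days differed by a log2 value of 0.44 ± 0.20, with an adjusted p of 1 in limma. No gene of the 34 passed the test of that difference, against 0.0217% of all genes upwards and 0.00868% downwards, and Cd7 was the only one with an unadjusted p under 0.05 (1.55% of all genes upwards, 1.89% downwards).

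Thy1, a membrane protein that in the rat marks young T cells as well as stromal cells and neurons, was at 4.73, 4.97 and 5.41 in D28 controls and at 4.45, 4.61 and 4.96 in exposed D28 rats. The exposed rats lay lower but overlapped with the controls, and the log2 FC was -0.35 ± 0.15 (95% interval -0.65 to -0.04, adjusted p = 0.365). On D0 its log2 FC was 0.08 (adjusted p = 0.973). These values average 2 probes, of which 1 was well above background on only 1 array, a D28 control. On D28 that dim probe had a log2 FC of -0.29 and the other -0.40 (adjusted p = 0.798 and 0.471, limma over all probes). Cd5, an inhibitor of T cell receptor signals, was at 4.50, 5.59 and 6.66 in D28 controls and at 5.24, 6.24 and 6.53 in exposed rats. The controls alone spanned a 4.47-fold range, wider than the difference of 0.50 ± 0.29 between groups (95% interval -0.10 to 1.1, adjusted p = 0.575). Cd2, an adhesion receptor of T and NK cells, was at 5.30, 6.01 and 6.56 in D28 controls and 5.90, 6.38 and 6.76 in exposed rats, with a log2 FC of 0.32 ± 0.19 (95% interval -0.08 to 0.72, adjusted p = 0.599). On D0 Cd5 and Cd2 had log2 FC of 0.09 and 0.05.

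Cd6, a receptor that modulates T cell activation, had the smallest spread among the surface genes. It was at 8.10, 8.25 and 8.40 in D0 controls and at 8.04, 8.37, 8.55, 8.70 and 8.38 in exposed D0 rats. It was at 8.08, 8.31 and 8.5 in D28 controls and at 8.25, 8.48 and 8.55 in exposed D28 rats. The exposed median was the higher on both days, but the groups overlapped (log2 FC 0.16 ± 0.10 on D0, adjusted p = 0.643, and 0.15 ± 0.10 on D28, adjusted p = 0.626). Over both days the log2 FC was 0.16 ± 0.07 (95% interval 0.01 to 0.30), with an adjusted p of 0.234.

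Icos, the inducible costimulator that T cells place on their surface after activation, was the 1 gene of the list that was higher in exposed lungs at an unadjusted p under 0.05 on both days. It was at 5.62, 5.94 and 6.36 (lowest, median and highest) in D0 controls. The exposed D0 rats had 6.64, 6.69, 6.34, 6.16 and 6.10. Replicates 1 and 2 of the exposed group were above every control, and the others fell within the upper part of the control range. The log2 FC on D0 was 0.43 ± 0.15 (95% interval 0.11 to 0.74), an FC of 1.34 with an adjusted p of 0.183. On D28 Icos was at 5.91, 6.23 and 6.53 in controls and at 6.38, 6.82 and 7.03 in exposed rats. Of the 6 exposed rats 4 exceeded every control, and the log2 FC was 0.48 ± 0.15 (95% interval 0.18 to 0.78, FC of 1.39, adjusted p = 0.125). Over both days the log2 FC was 0.45 ± 0.11 (95% interval 0.23 to 0.67, FC of 1.37), with an adjusted p of 0.0101. Its adjusted p over both days stayed under 0.05 in 35 of 35 other ways of processing, between 0.000645 and 0.0244, and was 0.0188 with the replicate number as a block.

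The difference in Icos was seen by probe and by slide. The probe for the predicted transcript was at 8.16 to 8.44 in D0 controls and at 8.82, 8.94, 8.89, 8.99 and 8.69 in exposed D0 rats. The groups did not overlap, and fitted by itself among all probes this probe had a log2 FC of 0.60 ± 0.12 (adjusted p = 0.00993) on D0, which passed both limits. Taken by gene rather than by probe, 1.94% of all genes were higher without overlap on D0, and 1.09% passed both limits upwards. On D28 this probe had a log2 FC of 0.39 ± 0.12 (adjusted p = 0.163). The first RefSeq probe had log2 FC of 0.52 ± 0.17 and 0.38 ± 0.16 (adjusted p = 0.145 and 0.422), and the dim second one 0.15 ± 0.26 and 0.67 ± 0.25 (adjusted p = 0.998 and 0.304). All 3 probes thus had a higher mean in exposed lungs on both days. Within slides, exposed minus control was 0.28, 0.45, 0.63 and 0.17 on D0 in the 4 slides with both groups, and 0.50, 0.79 and 0.43 on D28 in the 3 slides with both. The difference was positive in every slide that could be compared, each holding only 1 or 2 rats per group. The other costimulatory receptors, Cd27 and Cd28, had log2 FC between -0.30 and 0.05 (adjusted p of 0.739 or more).

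Of the signalling genes, 4 of 5 were higher and 1 lower on each day, with none at an unadjusted p under 0.05. Trat1, an adaptor that stabilises the receptor complex, was at 3.49, 4.34 and 4.54 in D28 controls and at 3.54, 5.00 and 5.46 in exposed D28 rats. Most of the exposed rats were above the controls, but replicates 3 and 4 were not (log2 FC 0.52 ± 0.25, 95% interval 0 to 1.05, adjusted p = 0.456), and its probe was above background on 5 of 6 and 4 of 6 of these arrays. On D0 its log2 FC was -0.08. Ubash3a, a negative regulator of receptor signalling, was at 7.29, 7.70 and 7.92 in D0 controls and at 8, 7.96, 7.64, 7.98 and 7.81 in exposed D0 rats. It overlapped, with a log2 FC of 0.22 ± 0.13 (95% interval -0.04 to 0.49, adjusted p = 0.573), and 0.09 on D28. The kinases Lck and Zap70 and the adaptor Lat had log2 FC between -0.16 and 0.17 (adjusted p of 0.837 or more).

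The transcription factors showed no shared direction, with 3 of 6 higher on D0 and 2 of 6 higher on D28. Foxp3, the factor of regulatory T cells, was at 3.4, 3.87 and 4.54 in D0 controls and at 3.26, 3.49, 3.48, 3.81 and 3.67 in exposed D0 rats. The exposed rats lay in the lower part of the control range or, for replicate 1, below it (log2 FC -0.34 ± 0.25, 95% interval -0.87 to 0.19, adjusted p = 0.753), and on D28 the log2 FC was 0.04. Its 2 probes differed in sign on D0, at -0.86 for a probe well above background on 1 of the 23 arrays and 0.18 for the other. Lef1, a factor of naive T cells and of several tissues outside the immune system, was at 5.88, 6.27 and 6.61 in D0 controls and at 6.02, 5.99, 6.29, 6.12 and 5.67 in exposed D0 rats. It overlapped as well (log2 FC -0.26 ± 0.20, 95% interval -0.69 to 0.16, adjusted p = 0.778), with -0.07 on D28. Tcf7, a factor of naive and memory T cells, Gata3, the factor of type 2 helper T cells, Tbx21, which drives type 1 responses and NK maturation, and Eomes, its relative in cytotoxic cells, had log2 FC between -0.31 and 0.35 (adjusted p of 0.709 or more). The 2 probes of Eomes differed in sign on both days (-0.17 and 0.43 on D0, -0.82 and 0.68 on D28).

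The cytotoxic granule genes were the only role in which every gene was lower in exposed lungs on both days, 5 of 5, though none at an unadjusted p under 0.05. Their median log2 FC was -0.32 on D0 and -0.55 on D28, beside 0 and -0.01 for all genes. The 5 genes varied together between rats, so they do not count as 5 separate observations. Single rats moved several of these differences by more than 1.5 times. On D0 the log2 FC lay between -0.28 and -0.02 without control D0 replicate 1 and between -0.95 and -0.51 without exposed D0 replicate 4. On D28, without control D28 replicate 4, it was -0.31 for Gzma, -0.03 for Gzmb, -0.33 for Gzmk, -0.35 for Nkg7 and -0.40 for Prf1. That array was alone on its slide, so a high rat and a slide effect cannot be told apart. Without exposed D28 replicate 2 the log2 FC was -0.69 for Gzma, -0.44 for Gzmb, -0.78 for Gzmk, -0.73 for Nkg7 and -0.62 for Prf1. Gzmb, granzyme B, was at 10.06, 10.39 and 11.11 in D0 controls. The exposed D0 rats had 8.99, 9.10, 9.27, 12.13 and 10.62. Of these 5 rats 3 were below every control, replicate 4 was above every control, and the exposed group spanned an 8.81-fold range. The log2 FC was -0.42 ± 0.48 (95% interval -1.41 to 0.57, adjusted p = 0.9), and -0.81 ± 0.40 without exposed D0 replicate 4 and control D0 replicate 1 (adjusted p = 0.578). Leaving out this pair was chosen after the data were seen, as both rats stood high for the granule genes. The SE and adjusted p without the pair, here and for the genes below, are thus no separate test. On D28 Gzmb was at 8.98, 10.39 and 11.10 in controls and at 9.55, 9.78 and 11.12 in exposed rats, with a log2 FC of -0.21 ± 0.45 (95% interval -1.16 to 0.73, adjusted p = 0.939).

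Gzmk, granzyme K, was at 11.14, 11.30 and 12.38 in D0 controls and at 10.77, 10.51, 10.81, 12.51 and 11.74 in exposed D0 rats. On D28 it was at 10.71, 11.46 and 12.87 in controls and at 10.75, 10.82 and 11.98 in exposed rats. Of the 6 exposed D28 rats 5 were below the control median and replicate 2 was above it. The log2 FC was -0.20 ± 0.37 on D0 (-0.33 ± 0.35 without exposed D0 replicate 4 and control D0 replicate 1) and -0.58 ± 0.36 on D28 (95% interval -1.32 to 0.16, adjusted p = 0.612). Prf1, perforin, was at 11.30, 11.58 and 12.38 in D0 controls and at 10.69, 10.69, 11.01, 13.03 and 11.75 in exposed D0 rats. The same 3 exposed rats were below every control and the same replicate 4 above every control as for Gzmb, with a log2 FC of -0.22 ± 0.35 (adjusted p = 0.954). Without that rat and control D0 replicate 1 it was -0.48 ± 0.28 (adjusted p = 0.724). On D28 Prf1 had a log2 FC of -0.47 ± 0.33 (adjusted p = 0.689). Gzma, granzyme A, and Nkg7, a granule membrane protein, had log2 FC of -0.39 and -0.32 on D0 and -0.55 and -0.56 on D28 (adjusted p between 0.639 and 0.91). Without the same 2 rats the D0 values were -0.52 and -0.50.

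The spread between rats of a group was wider for these genes than for the CD3 chains. The SD between rats of a group was 0.60 to 0.82 for the 5 granule genes, wider than that of 79.5% to 91.1% of all genes, whose median SD was 0.32. It was 0.17 to 0.25 for Cd3e, Cd3d and Cd3g, but 0.62 for the zeta chain Cd247 and 0.75 for the coreceptor Cd8a. Of the NK cell receptors, Ncr1, which encodes NKp46, had log2 FC of -0.18 and -0.35 on D0 and D28, Klrd1, which encodes CD94, -0.11 and -0.11, and Klrk1, which encodes NKG2D, 0.02 and -0.02, with SD of 0.64, 0.49 and 0.52 (adjusted p of 0.814 or more).

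**Figure D3:**
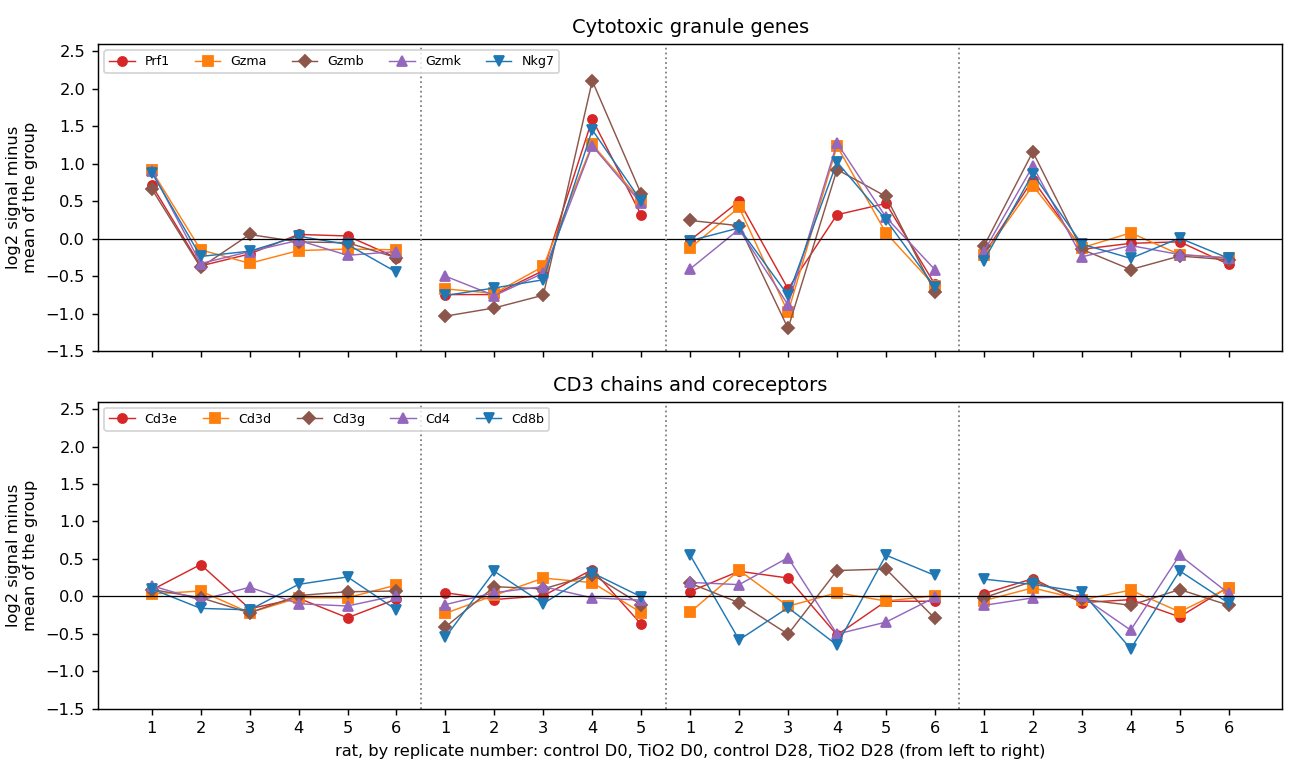
Log2 signal minus the mean of the group in each of the 23 rats, for Prf1, Gzma, Gzmb, Gzmk and Nkg7 (top) and Cd3e, Cd3d, Cd3g, Cd4 and Cd8b (bottom), with dotted lines between groups. The 5 granule genes move as one from rat to rat, up to 2.11 above the mean in exposed D0 replicate 4, while the others shown vary less. Cd247 and Cd8a, of the same roles as the lower panel but not shown, varied about as widely as the granule genes (SD of 0.62 and 0.75).

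Between rats of the same group, the cytotoxic granule genes varied together with several other genes of the list. Each value was centred on the mean of its group, which removes treatment and time, and set against Prf1. With Prf1 as a covariate in limma, 9 of 33 genes had a positive slope at an adjusted p under 0.05 over all genes, against 0.434% of all 23028 genes, and 0 of 33 a negative one, against 0.0261%. At an unadjusted p under 0.05, 16 of 33 slopes were positive and 0 negative, against 4.39% and 4.06% of all genes. Pearson's r was 0.96 for Zap70, 0.95 for Gzmb, 0.94 for Nkg7, 0.90 for Gzma and 0.88 for Gzmk. It was 0.86 for Cd8a, 0.82 for Klrd1, 0.80 for Ncr1 and 0.74 for Cd247. Spearman's rho for these 9 lay between 0.65 and 0.95. Permutation p within groups were 0.00024 or less for r, before adjustment and from 66 relations computed, where 1e-05 is the smallest that 100000 permutations can give. Among the 9, Klrd1 and Ncr1 encode receptors of NK cells. Zap70 encodes a kinase of T cell receptor signalling, and Cd247 the zeta chain that NK cells use as well. Which cells carried these signals was not tested.

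The r of these 9 genes with Prf1 was lower but stayed positive without the 2 rats farthest from the median, exposed D0 replicate 4 and exposed D28 replicate 2. Without them r was 0.92 for Zap70, 0.89 for Gzmb and Nkg7, 0.86 for Gzma, 0.83 for Gzmk, 0.79 for Cd8a, 0.72 for Klrd1 and Ncr1 and 0.67 for Cd247. The first 5 of these passed the adjusted threshold without those rats, while Cd8a, Klrd1, Ncr1 and Cd247 did not. Control D0 replicate 1 and control D28 replicate 4, which also stood high for the granule genes, were kept in that fit. With the slide as a block, 8 of the 9 passed, all but Ncr1, and on values centred on the slide r with Prf1 was between 0.77 and 0.97 for all 9. The 10 pairs of granule genes had r between 0.88 and 0.97, with 0.97 for Gzma and Gzmk, whose probes lie at chr2:44490165-44490224 and chr2:44589378-44589437 in rn4. Prf1 had r of 0.14 with Cd3e, 0.31 with Cd3d, 0.61 with Cd3g, -0.25 with Icos and -0.24 with Tbx21. Taken by probe, the 2 probes averaged for Eomes had r of 0.75 and -0.13 with Prf1. Cd3e itself had r of 0.44 with Cd3d, -0.16 with Cd3g and 0 with Cd247, so it tracked the other chains only in part. The relation of Prf1 with Cd3e depended on the slide, with r 0.51 once values were centred on the slide, so no separation of the granule genes from the CD3 chains was established. When Cd3e was the covariate, 0 of 33 genes passed the adjusted threshold in limma, and neither did any gene among all tested. At an unadjusted p under 0.05, Cd5, Klrk1 and Lef1 had a positive slope on Cd3e, 3 of 33 against 7.09% of all genes, and 0 of 33 had a negative one, against 4.15%. Over the 23 rats, Prf1 had r of -0.19 with the upper quartile of the signal of the array (permutation p = 0.474, rho -0.13) and of -0.27 with the share of spots well above background (permutation p = 0.319, rho -0.05).

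**Figure D4:**
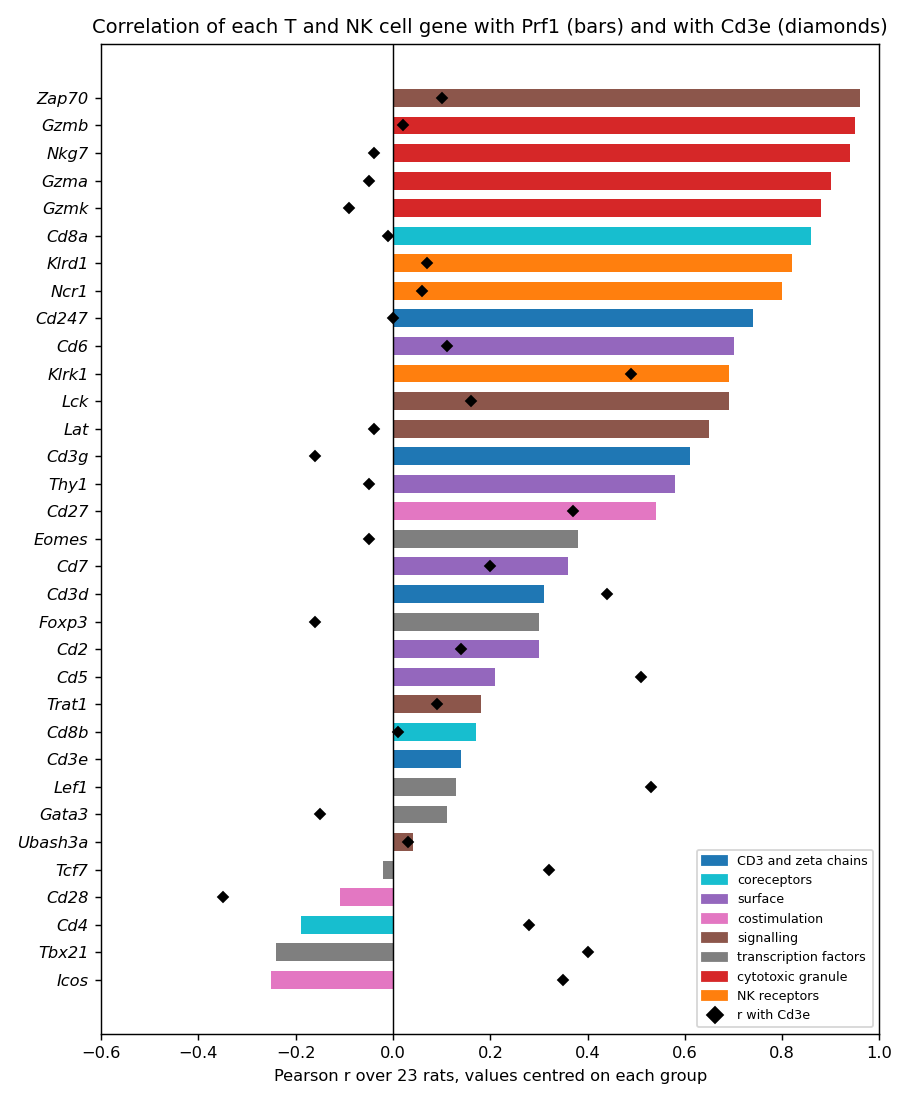
Pearson correlation over 23 rats, on values centred on each group, of each T and NK cell gene with Prf1 (bars, coloured by role) and with Cd3e (black diamonds). Bars run from -0.25 for Icos to 0.96 for Zap70, and the granule genes and NK receptors reach 0.69 or more with Prf1 while none of them exceeds 0.49 with Cd3e.

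In individual rats, all 5 granule genes lay above the group mean in control D0 replicate 1 (by 0.67 to 0.91) and in exposed D0 replicates 4 and 5 (by 1.24 to 2.11 and by 0.32 to 0.60). On D28 they all did so in control replicates 2, 4 and 5 and in exposed replicate 2 (by 0.71 to 1.16). All 5 lay below the group mean in control D0 replicates 2 and 6 and in exposed D0 replicates 1, 2 and 3. On D28 all 5 lay below it in control replicates 3 and 6 and in exposed replicates 1, 3 and 6. The lowest deviation was in control D28 replicate 3, where the 5 genes lay at -1.20 to -0.67. Before centring, the mean log2 signal of the 5 genes was 11.27 to 12.38 in D0 controls and 10.49, 10.51, 10.74, 11.73 and 12.78 in exposed D0 rats. On D28 it was 10.65 to 12.51 in controls and 10.80 to 11.97 in exposed rats. Other genes of NK and cytotoxic cells followed the same rats. Of 30 further genes of that kind, 11 had a positive slope on Prf1 at the adjusted threshold, with a median r of 0.60, and examples outside that list are Il2rb, a receptor chain for interleukin signals (r 0.93), and Ccl5, a chemokine (r 0.90). The median r was -0.03 over all genes, -0.03 for 12 B cell genes, -0.13 for 9 blood genes, 0.11 for 12 macrophage genes and -0.17 for 10 neutrophil genes, and none of these passed in the positive direction. Of 25 further T cell receptor genes 3 passed, of 26 genes of T cell state 3, and of 15 cytokines and chemokines 2. Among 7 mast cell genes Tpsab1, a tryptase, passed with r 0.74.

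No gene of the list passed the threshold between the 2 days. Between D0 and D28, 0 of 34 genes passed in controls with limma, against 0.386% of all genes upwards and 0.221% downwards, and 0 of 34 in exposed rats, against 0.213% and 0.139%. In controls Tcf7 was at 7.16, 7.45 and 7.91 on D0 and at 7.65, 8.19 and 8.58 on D28. Most D28 rats were higher, with a log2 FC of 0.69 ± 0.19 (95% interval 0.29 to 1.08) and an adjusted p of 0.103. Without adjustment, Tcf7 was higher and Gata3, Lck and Trat1 lower on D28 in controls (6.52% and 6.73% of all genes), with log2 FC of -0.81, -0.56 and -0.56 for the last 3. Of the 2 probes averaged for Gata3, 1 was well above background on only 4 of 6 D0 and 3 of 6 D28 control arrays. In exposed rats Cd7 was higher on D28 without overlap, which 0.669% of all genes showed, and 0 of 34 genes were lower without overlap, against 0.538% (for Cd7, log2 FC 0.55 ± 0.14, adjusted p = 0.123). Icos was higher (0.35) and Lck lower (-0.59) without adjustment in exposed rats, where 3.82% and 3.88% of all genes were.

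Other genes of T and NK cells were followed from lists outside the 35. Of 25 further genes of T cell receptor signalling and 15 T cell cytokines and chemokines, 0 passed on either day in limma, with medians of 0.03 and -0.01 on D0 and -0.02 and -0.10 on D28. At an unadjusted p under 0.05, 1 of the 25 was higher and 0 lower on D0, and 2 were higher and 1 lower on D28. Of the 15, 1 was higher and 1 lower on D0 and 0 on D28. Of 30 further NK and cytotoxic genes 0 passed on either day, with medians of -0.16 and -0.13, and 4 were lower and 0 higher on D0 at an unadjusted p under 0.05, and 0 lower and 2 higher on D28. Of 26 genes of T cell state, 5 were higher and 1 lower on D0 at that p, and 4 higher and 1 lower on D28. The medians of these 26 were 0.04 and 0. For the mean of both days 7 of the 26 were higher and 3 lower, against 7.55% and 9.69% of all genes. The shares of all genes at that p were 5.61% higher and 6.34% lower on D0, and 4.81% and 6.18% on D28.

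For the mean of both days, Klrc1, Slamf6 and Sectm1a, from lists of other T and NK cell genes and their ligands, passed both limits, close to the threshold. Among all genes, 1.19% passed upwards and 0.677% downwards. Klrc1, which encodes the inhibitory NKG2A chain that pairs with CD94, was lower by a log2 FC of -0.78 ± 0.23 (adjusted p = 0.0447), with medians of 4.99 and 4.21 in D0 controls and exposed rats and 5.23 and 4.73 on D28. Its call held when any one of control D0 replicates 3 and 6, exposed D0 replicates 1 and 4, control D28 replicates 3, 5 and 6 and exposed D28 replicate 2 was left out. It was lost without any one of the other 15 arrays and with the slide as a block (log2 FC -0.69, adjusted p = 0.0811), and its adjusted p reached at most 0.0909 over 35 other ways of processing. Slamf6, a receptor of T and NK cells, was higher by 0.60 ± 0.16 (adjusted p = 0.0206), and lost an FC of 1.5 or more without any one of 6 arrays. These were control D0 replicate 1, exposed D0 replicates 1 and 2, control D28 replicates 4 and 6 and exposed D28 replicate 6, with log2 FC down to 0.52. Sectm1a, named as a ligand of CD7, was higher by 0.60 ± 0.16 (adjusted p = 0.0239) and lost the limit without any one of 8 arrays. These were control D0 replicates 1 and 6, exposed D0 replicate 4, control D28 replicates 3, 4 and 6 and exposed D28 replicates 2 and 6, with a log2 FC down to 0.44 without exposed D0 replicate 4.

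Markers of other cells moved with the exposure beside these results, and their part in them was not tested. Of 8 genes of cell division, 6 were over-expressed on D0, against 1.09% of all genes, led by Ccnb1 and Top2a (log2 FC of 1.19 each). On that day Mki67 was at 7.24, 7.50 and 8.01 in controls and at 8.48, 8.69 and 8.86 (lowest, median and highest) in exposed rats. The mean signal of the macrophage list was 8.96 to 9.17 in D0 controls and 9.27 to 9.59 in exposed D0 rats, and Siglec1, a macrophage surface receptor, was higher by 0.89 ± 0.16 (adjusted p = 0.00262). On D28 the macrophage list was at 8.74 to 9.26 in controls and 9 to 9.41 in exposed rats. The mean signal of the B cell list was 7.63 to 8.05 in D0 controls and 7.53 to 7.89 in exposed D0 rats, with 0 of 12 genes past the threshold in limma and 0 at an unadjusted p under 0.05. The mean signal of the blood list was 11.64 to 11.87 in D0 controls and 11.34 to 11.61 in exposed D0 rats, without overlap, with 0 of 9 genes past the threshold in limma and 4 lower at an unadjusted p under 0.05. On D28 the blood list was at 11.60 to 11.96 in controls and 11.38 to 11.87 in exposed rats, with 8 of 9 genes lower, as on D0, and 3 at an unadjusted p under 0.05. All 7 endothelial genes had a lower mean in exposed lungs on both days, 0 past the threshold in limma and 3 at an unadjusted p under 0.05 on each day. The mean signal of that list was 12.49 to 12.67 in D0 controls and 12.18 to 12.38 in exposed D0 rats, without overlap, and 12.47 to 12.69 and 12.24 to 12.62 on D28. Over all genes, 5.61% were higher and 6.34% lower on D0 at an unadjusted p under 0.05, and 4.81% and 6.18% on D28. Which cells carried the Icos signal was not measured.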

How the data were processed

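RNA from the accessory lobe of 23 rat lungs had been hybridised, 1 lung per array, to single-colour Agilent arrays, scanned and read by the authors with Feature Extraction (version 11.0.1.1 for 22 arrays and 12.0.1.1 for 1). The deposited files hold the processed fluorescence intensity of each spot, background-subtracted by that software and not normalised between arrays. A deposited table of intensities normalised by the authors was used, after taking log2, as an alternative only.

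Of 45598 probes, 40417 were kept, as their signal passed the 95th percentile of 308 negative controls on 5 or more arrays, and 32415 of these had a gene symbol. Log2 intensities were quantile normalised and probes of a gene averaged, which gave 23058 genes. After 29 with a missing value were dropped, 23029 were tested. The 4 group means were fitted in one linear model with limma 3.58.1 in R 4.3.3 (19 residual degrees of freedom), and p-values were adjusted by Benjamini-Hochberg over all genes. The threshold was an adjusted p under 0.05 with a fold change of at least 1.5. For covariation between rats, the signal of Prf1 or Cd3e was added to the model. This adjustment over all genes was chosen after the data were seen, in place of one over the list. Permutation tests used numpy 2.4.6, with ranks for Spearman's rho from scipy 1.17.1. The fits were tested on simulated data.

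The 35 genes and the other lists were chosen with earlier results of these data known. Every gene is named by role. Full values are given for Cd3e, Cd8a, Gzmb and the 6 lowest unadjusted p on each day, and for genes of other lists past the threshold, at most 6 per comparison. The alternatives were other normalisations and background corrections, filters, probe rules, blocks and leaving out arrays. A sixth exposed D0 array was not analysed here. A result on 1 gene outside the list is not reported here. Promoters came from RefSeq. The precision is limited by the number of arrays.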

Additional observations from a re-analysis of the deposited data

Results flagged for a closer look

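In 20 of 136 sets of values (34 genes in 4 groups), 1 rat lay far from the rest of its group by Dixon's test at the 95% level. Chance flags about 1 in 20 groups, and genes that vary together are flagged together.

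Of these values, 8 came from exposed D28 replicate 2, which was high for 7 genes and low for 1. The high values were 12.02 for Prf1, 12.71 for Gzma, 11.12 for Gzmb, 11.98 for Gzmk, 12.04 for Nkg7, 10.68 for Zap70 and 9.35 for Klrd1. The low value was 8.76 for Cd28. Control D0 replicate 1 was high for 5 genes, at 10.77 for Cd247, 13.42 for Gzma, 12.38 for Gzmk, 12.60 for Nkg7 and 7.28 for Ncr1.

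The remaining values were spread over other rats. Exposed D0 replicate 1 was low for Cd7 at 7.65, which carries much of the D0 difference of that gene. Control D0 replicate 3 was at 10.25 for Cd3g and exposed D28 replicate 6 at 8.25 for Cd6. Exposed D28 replicate 4 was at 5.33 for Lck and control D28 replicate 3 at 3.49 for Trat1. Control D28 replicate 2 was at 6.61 for Lef1 and control D28 replicate 6 at 4.55 for Klrk1.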

How the results depend on the processing

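The count of T and NK cell genes past both limits was 0 in each comparison and stayed 0 except in the following alternatives, where it was 1. On D0 Icos passed when the brightest probe stood for each gene (log2 FC 0.60, adjusted p = 0.00548) or when probes were tested one by one, the latter chosen after seeing the data. Over both days Icos passed without the fold change limit. Between days in controls, Tcf7 passed with scaling to the 75th percentile, with array quality weights and without control D28 replicate 1, so that leaving out 1 rat gave 0 to 1, and Tbx21 passed with the slide as a block. Between days in exposed rats, Cd7 passed with the slide as a block (log2 FC 0.60, adjusted p = 0.0328). Covariation with Prf1 passed for 9 genes, for 8 to 10 when 1 rat was left out, and for 5 without the 2 farthest rats.

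The replicate numbers were not treated as pairs. The deviations of 33 same-numbered pairs of arrays had a median correlation of -0.02 (-0.30 to 0.46), beside 0 (-0.40 to 0.43) for 165 other-numbered pairs. With the replicate number as a block, 0 genes passed in every comparison and the median log2 FC was -0.03 on D0, -0.02 on D28 and -0.05 over both days.

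Leaving out 1 rat moved the median log2 FC of the list between -0.14 and 0.05 on D0 and between -0.09 and 0.01 on D28. Within slides, each with few rats, it was -0.29 on slide 1 and 0.39 on slide 4 for D0, 0.60 on slide 2 for D28 and 0.26 on slide 2 over both days. Between days in exposed rats it was 0.22, 0.38 and -0.33 on slides 1, 2 and 4. The cause was not tested.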

Other observations

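Other cell types were followed with lists of markers, as values beside the T and NK cell genes. Of 11 ligands of the listed receptors, 3 were higher on each day at an unadjusted p under 0.05 and 0 lower, and 0 passed the threshold in limma on either day. At that p, 5.61% of all genes were higher and 6.34% lower on D0, and 4.81% and 6.18% on D28. Of 10 neutrophil genes, 2 were higher and 2 lower on D0 and 1 lower on D28 without adjustment. Over both days Ngp, a neutrophil granule protein, was lower by a log2 FC of -0.79 ± 0.24 (adjusted p = 0.0493), a call lost in 24 of 35 other ways of processing.

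Of 7 fibroblast genes, 6 had a lower mean in exposed lungs on each day. On D0 1 of the 7 passed both limits, against 0.695% of all genes downwards. This was Tcf21, a transcription factor of lung mesenchyme, lower by a log2 FC of -0.66 ± 0.15 (limma, adjusted p = 0.0193). The call was lost without control D0 replicate 4, exposed D0 replicate 1 or exposed D0 replicate 5, with a log2 FC between -0.72 and -0.59 over all rats left out in turn. All 7 mast cell genes had a lower mean in exposed lungs on D0, with a median log2 FC of -0.37, and 2 were lower without adjustment. On D28 4 of the 7 were lower and 3 higher, with a median of -0.02. Of 8 lung epithelium genes 2 were higher and 1 lower on D0, and 2 were higher and 2 lower on D28. Without adjustment, 5.61% of all genes were higher and 6.34% lower on D0, and 4.81% and 6.18% on D28.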
